A study of Mus musculus with 4 samples.

Results

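Perineuronal nets are sheaths of extracellular matrix around the cell bodies of certain neurons, and the genes that build them were described in nuclei of cervical spinal cord. The 10 genes were taken by name from the 32285 gene symbols of the deposited matrices, with earlier results of these data known, a lower detection of Has1 after injury among them: the hyaluronan synthases Has1, Has2 and Has3, the link proteins Hapln1 and Hapln4, the lecticans Acan, Bcan, Ncan and Vcan, and tenascin-R (Tnr). All 10 were present in each of 4 libraries. Both groups were female mice of the genotype Chx10Cre/+; ROSA26CAG-LSL-Sun1-sfGFP-Myc/+, in which a Cre driver of V2a interneurons marks nuclei with a fluorescent protein. The uninjured group had 2 libraries from segments C1 to C8, and the injured group had 2 libraries from segments C3 to C8, taken 5 days after a hemisection at C2. Injury and segment range therefore cannot be told apart. Separate animals are not stated for the 4 libraries, and each p-value is therefore set against a variation among libraries that may be technical.

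Hyaluronan is a long sugar polymer made at the plasma membrane by the synthases and extruded as the backbone of the net. Lecticans are chondroitin sulfate proteoglycans that bind hyaluronan, link proteins stabilise that bond, and tenascin-R crosslinks lecticans at their other end. In the spinal cord, aggrecan-rich nets are best known around motoneurons and some interneurons, and the lecticans versican, neurocan and brevican are also made by glia.

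The libraries held 2901680 to 13496025 total counts, and 3573 of 4001 nuclei passed the filters, with 1 barcode found in more than 1 library. Of 17 clusters, 7 were named glutamatergic neuron-like and held 475 and 774 uninjured and 404 and 320 injured nuclei. Slc17a6, the vesicular glutamate transporter and a marker of the label, had 0 counts in these nuclei of injured 1 although 84.4% of them stored the gene. Uninjured 2 stood apart, holding 658 of 683 oligodendrocyte-like, 108 of 117 astrocyte-like and 31 of 33 oligodendrocyte precursor-like nuclei, so glia allowed no comparison between groups.

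A pair of measures were available for each gene, its count and its stored-entry share, the percentage of nuclei in which the matrix stores the gene at all. Between 53.0% and 60.1% of stored entries held a 0, and on the files alone these were read as detections emptied by a subtraction of free RNA. The net genes were touched unevenly. For Has1, 59.9%, 69.7%, 61.5% and 69.2% of stored entries still held a count (uninjured 1, uninjured 2, injured 1, injured 2, the order used below). For Tnr the range was 75.1% to 83.9%. Hapln4 kept a count in 0 entries of every library, and Bcan kept 0%, 16.3%, 10.7% and 0%. Vcan kept 50.7%, 0.840%, 53.1% and 8.33%, which alternates between libraries within each group. Counts of Bcan, Vcan and Hapln1 therefore differed greatly between libraries of the same group, and their stored-entry shares are given first.

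**Figure D1:**
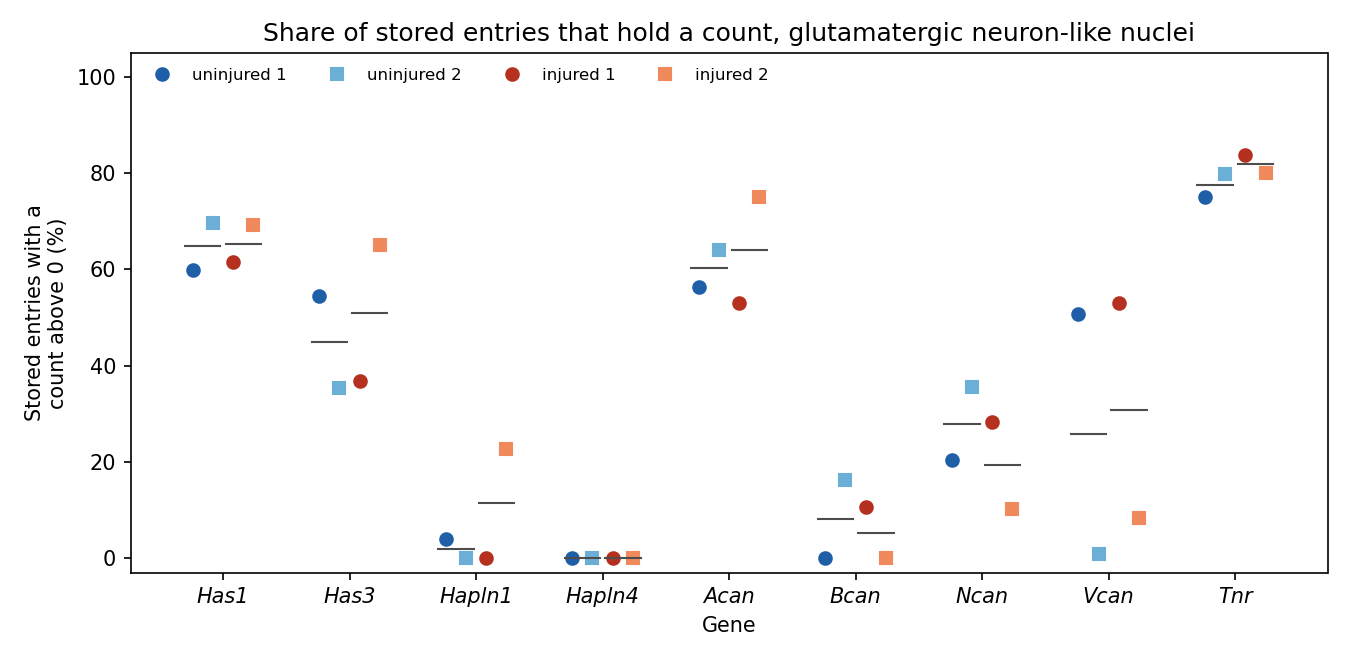
Percentage of stored matrix entries that hold a count above 0 (vertical axis) for 9 of the genes (horizontal axis; Has2 has too few entries) in glutamatergic neuron-like nuclei. Points are libraries and short lines group means; Has1 lies between 59.9% and 69.7% in all 4 libraries, whereas Hapln4 is at 0 and Vcan spans 0.840% to 53.1%.

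The promoters of 2 genes are shown because their transcripts contrast in distribution: Has1 was stored across neuron clusters and rarely stored in glia, and Vcan was stored in every oligodendrocyte precursor-like nucleus. Each run is the 250 bases upstream of the RefSeq start site (GRCm38.p6), 5′ to 3′ on the strand of the gene, with motif matches in capitals. Has1 lies at chr17:17855189-17855438 and Vcan at chr13:89742513-89742762, both on the minus strand.
Has1: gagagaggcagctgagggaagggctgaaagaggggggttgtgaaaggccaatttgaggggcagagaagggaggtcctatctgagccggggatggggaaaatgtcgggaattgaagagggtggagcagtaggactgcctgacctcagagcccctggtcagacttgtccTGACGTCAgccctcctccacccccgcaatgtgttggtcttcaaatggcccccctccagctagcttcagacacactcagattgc
Vcan: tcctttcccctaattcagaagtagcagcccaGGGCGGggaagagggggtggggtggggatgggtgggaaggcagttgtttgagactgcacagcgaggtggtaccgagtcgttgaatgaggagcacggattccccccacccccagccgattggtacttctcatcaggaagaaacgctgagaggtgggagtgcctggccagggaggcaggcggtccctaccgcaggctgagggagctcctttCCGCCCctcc
The capitals in Has1 mark TGACGTCA, the cAMP response element, from -83 to -76, which is present in 1.79% of 32851 promoter windows of 300 bases. The capitals in Vcan mark matches to the GC box GGGCGG on either strand, present in 35.7% of windows. Searches on both strands for TGANTCA (AP-1), TATAAA and ACAATG (a SOX motif) found no match in either window, and of the 7 genes with a RefSeq promoter here, Has1 alone matched TGACGTCA. These matches are descriptions of letters, not evidence of binding.

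Across cell groups, the genes fell into different distributions, described here without a test because clusters were made from the same nuclei. Acan, the core proteoglycan of the classical net (chromosome 7, 79053483 to 79115099, plus strand, GRCm38), was concentrated in 2 of the 7 glutamatergic clusters. Its stored-entry share in cluster 0, led by genes that include Rbm20 and Aff1, was 52.9%, 41.2%, 36.6% and 42.1%, and in cluster 9, led among named genes by Hgf and Adamts19, it was 50%, 36.1%, 20% and 32.3%. In the other 5 glutamatergic clusters the mean over libraries was 1.43% to 15.1%. Scaled to the total counts of the same nuclei (CPM), Acan averaged 37.3 in cluster 0 and 20.2 in cluster 9. The other 5 glutamatergic clusters averaged 0 to 10.6 CPM. Outside the glutamatergic clusters, the shallow unnamed neuron cluster 6 had 33.0, 33.2, 7.34 and 6.84 CPM, from 8, 9, 1 and 1 counts. Cluster 0 held 331 of the 395 Acan counts in glutamatergic neuron-like nuclei, and 9418771 of their 21324556 total counts. Cluster 0 was also the deepest, with a median of 12068 counts per nucleus, and the part of depth in its shares was not tested.

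The link proteins and Has3 were also highest in clusters 0 and 9. Hapln1, which locks lecticans onto hyaluronan, averaged 50.3% in cluster 0 and 31.5% in cluster 9, against 4.60% to 23.2% in the other glutamatergic clusters. Hapln4, a brain link protein, averaged 46.9% and 39.3%, against 6.42% to 36.5%. Has3, a hyaluronan synthase, averaged 22.8% and 22.4%, against 3.77% to 15.4%. The link protein shares rest almost wholly on stored entries without a count. Over all libraries, Hapln4 was stored in 577 glutamatergic neuron-like nuclei with 0 counts, and Hapln1 in 527 with 27 counts. Hapln1 kept a count in 4%, 0%, 0% and 22.8% of its stored entries. The shares of the link proteins and Has3 were not matched on depth. Clusters 0 and 9 were the deepest glutamatergic clusters, with medians of 12068 and 10010 counts per nucleus, and the part of depth was not tested.

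Bcan, encoding brevican (chromosome 3, 87987531 to 88000230, minus strand), was stored often in both neurons and astrocytes, but its counts were highest in astrocytes. It was stored in 82.4% (95% exact interval 73.9 to 89.1) of astrocyte-like nuclei of uninjured 2, with 513 CPM (counts scaled to the total of the same nuclei), and in 87.3% of cluster 0 nuclei on average. In glutamatergic neuron-like nuclei the Bcan counts were 0, 238, 62 and 0, of which cluster 0 held 263 of 300, with 52.7 CPM in uninjured 2, and clusters 8, 10 and 11 held 0. The frequency of Bcan in neurons therefore rests mostly on stored entries without a count. Outside these clusters, the shallow unnamed neuron cluster 6 had 0, 103, 58.7 and 0 CPM, from 0, 28, 8 and 0 counts. Oligodendrocyte precursor-like nuclei of uninjured 2 stored Bcan in 51.6%, with 136 CPM. At the depth of astrocytes, where 22 glutamatergic neuron-like nuclei of that library had as few stored genes, the share was 87.2% (75 of 86) in astrocyte-like and 36.4% (8 of 22) in neuron-like nuclei. Ncan, encoding neurocan (chromosome 8, 70093085 to 70120873, minus strand), was stored in 17.6% of astrocyte-like and 32.3% of precursor-like nuclei, and in 12.6% to 25.7% of the glutamatergic clusters. Its counts were higher in these glia of uninjured 2, at 64.6 and 56.5 CPM, against means of 3.56 to 7.63 CPM in the glutamatergic clusters. At the depth of astrocytes, Ncan was stored in 16.3% (14 of 86) of astrocyte-like and 13.6% (3 of 22) of neuron-like nuclei. At the depth of precursors, the shares were 36% (9 of 25) in precursor-like and 12% (3 of 25) in neuron-like nuclei. In oligodendrocyte-like nuclei it was stored in 0 of 683, which allows up to 0.539% by the exact interval.

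Vcan (versican; chromosome 13, 89655312 to 89742509, minus strand) and Tnr (chromosome 1, 159523769 to 159931729, plus strand) were highest in oligodendrocyte precursor-like nuclei. Vcan was stored in 31 of 31 such nuclei of uninjured 2, at 5805 CPM, and Tnr in 30 of 31, at 13247 CPM. Tnr was among the markers used to name that cluster, and Vcan was its leading gene. Tnr was also frequent in neurons, stored in 84.8% to 96.5% of nuclei of the glutamatergic clusters. Its highest neuronal level was in cluster 8 (mean 1602 CPM over 4 libraries, against 298 to 731 CPM in the other 6 glutamatergic clusters). In the other neuron clusters Tnr was stored in 84.6% (cluster 7), 60.5% (cluster 6), 56.1% (inhibitory neuron-like cluster 13) and 46.6% (cluster 4), not matched on depth. The Tnr gene overlaps Gm38039 on the opposite strand, and Vcan overlaps Gm16318 and Gm4117. Has3 likewise overlaps Chtf8, Hapln1 overlaps Gm8546 and Has2 overlaps Has2os. The use of strand in counting is not given in the sources used here. Has2, another synthase (chromosome 15, 56665627 to 56694539), was stored in 6 of 31 precursor-like nuclei (19.4%, exact interval 7.45 to 37.5) and in 6 of 1973 glutamatergic neuron-like nuclei. Its antisense neighbour Has2os led cluster 10, where Has2 itself was stored in 2 of 124 nuclei.

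**Figure D2:**
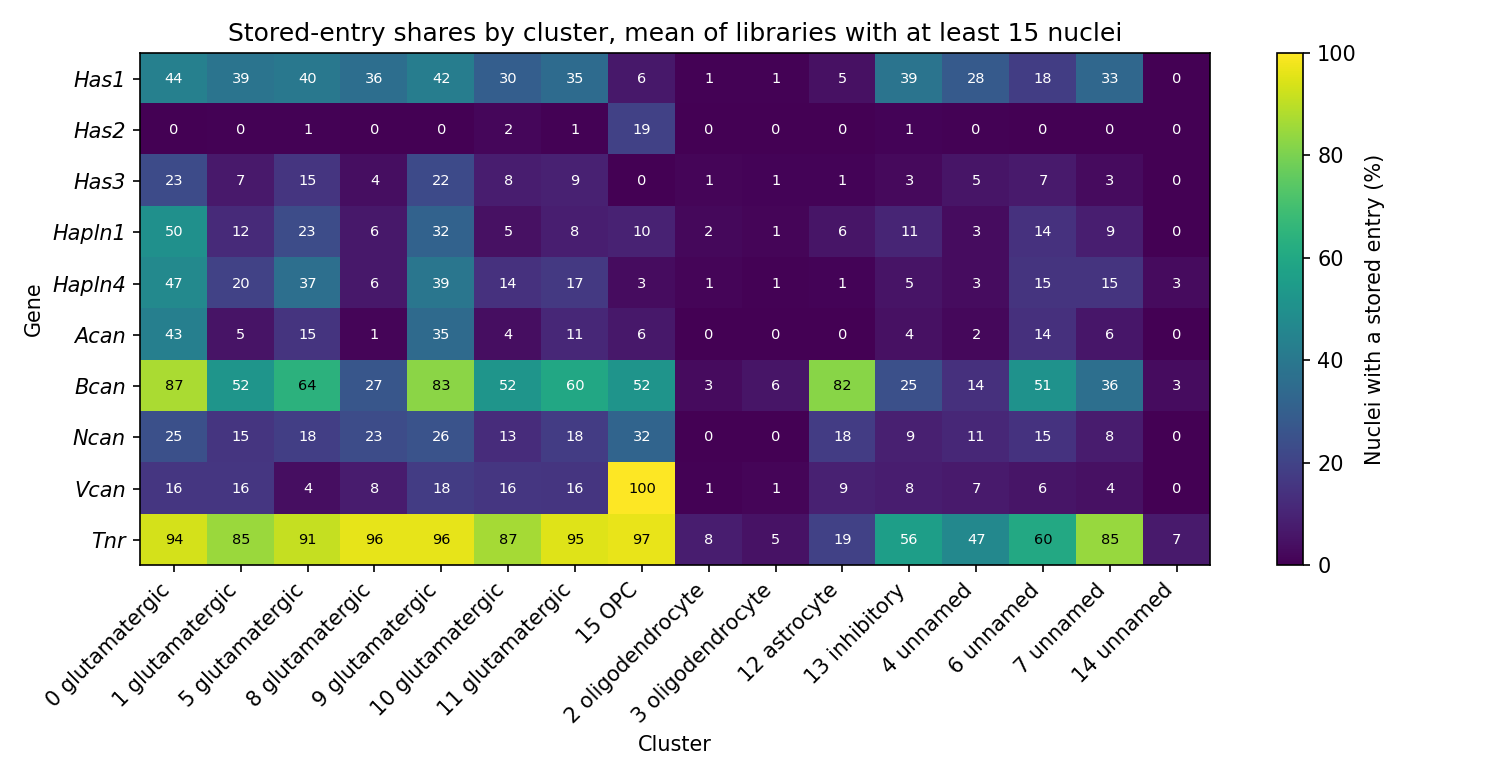
Percentage of nuclei with a stored entry (colour and printed value) for each gene (rows) in each cluster (columns), as the mean of the libraries with at least 15 nuclei; OPC stands for oligodendrocyte precursor-like. Acan, Hapln1, Hapln4 and Has3 are highest in clusters 0 and 9, Vcan reaches 100% in cluster 15, and Has1 spans the neuron clusters. Shares are not matched on depth.

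Has1 (chromosome 17, 17843323 to 17855205, minus strand), the synthase that was common in these neurons, was stored in every neuron cluster. In uninjured 2, which holds nearly all nuclei of clusters 4 and 13, its share was 43.3% to 58.5% in the 7 glutamatergic clusters, 53.3% in the unnamed neuron cluster 7 and 38.6% in the inhibitory neuron-like cluster 13. It was 28.3% in cluster 4, an unnamed neuron cluster led by Ebf2 and Lmx1b, and 30.4% in cluster 6, a shallow one. Over 4 libraries the mean was 29.8% to 43.6% in the glutamatergic clusters and 18.3% in cluster 6. Over all libraries it was stored in oligodendrocyte-like nuclei in 4 of 683 (0.586%) and in astrocyte-like nuclei in 5 of 117 (4.27%), with 0 counts in both. Those nuclei were shallower, but at the depth of astrocytes the share was 2.33% (2 of 86) against 31.8% (7 of 22) in neuron-like nuclei, and at the depth of precursors 4% (1 of 25) against 36.0% (9 of 25). No annotated gene overlaps Has1, and the nearest, Spaca6, lies 313 bases away on the other strand. The genes whose shares over the 6 clusters tested below most resembled those of Has1 were Taf15, Tfpt, Taldo1, Gosr1 and Arl6ip6. Their Pearson r was 0.997 to 0.999 over 6 clusters that share libraries. These were the highest values among all genes with a mean share of at least 5%, and such a search itself favours values near 1. The unmatched shares also follow the depth of the clusters.

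The injury comparison asked whether these genes differed between libraries of uninjured and injured cord in glutamatergic neuron-like nuclei. Has1 was the member with the largest difference in stored-entry share. Among nuclei matched on the number of stored genes, Has1 was stored in 42.8% and 49.9% of uninjured and 25.6% and 28.3% of injured nuclei. Both injured libraries lay below both uninjured libraries, as for 23.1% of the 13196 genes tested (22.8% had both higher). The means differed by 19.4 percentage points (46.4 ± 5.01 and 26.9 ± 1.85, SD, n = 2 each). The difference of -1.22 in log2 odds (SE 0.23) did not pass the threshold of 0.05 in the limma test over 13196 genes (adjusted p = 0.0586, unadjusted p = 0.000296). That test called 2 genes lower (0.0152% of genes tested) and 0 higher, with 2013 genes at an unadjusted p under 0.05; the called genes, looked up after the test, were Cd163l1 and Gm16105.

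The Has1 result lay close to the threshold, and several choices moved it across. A set of 4 genes was stored in every matched nucleus and has no spread, and without them, an alternative chosen after the data were seen, limma called 181 genes lower (1.37%), Has1 among them (adjusted p = 0.0313), and 15 higher (0.114%). Without a trend in the variance prior, limma called 0 genes and gave Has1 an adjusted p of 0.127. Leaving out uninjured 1 gave 245 calls and an adjusted p of 0.00723 for Has1, and leaving out any other library gave 0.106 to 0.170. Over 19 alternatives the Has1 difference was negative in all 19 and past the threshold in 9, with adjusted p from 0.00126 to 0.170. The alternatives reuse the same 4 libraries, and the lower detection of Has1 was known beforehand, so the shared sign is no independent support. Among the 1190 genes lower at an unadjusted p under 0.05, 48.0% were protein-coding and 77.6% overlapped a gene on the opposite strand, against 86.5% and 50.7% of all genes tested. Has1 is protein-coding with no such overlap, and the cause of that make-up of the lower genes was not tested. The neighbour of Has1, Spaca6, was stored in 63.1%, 65.3%, 57.2% and 55.0% (limma unadjusted p = 0.0501, adjusted p = 0.328). It too was lower in both injured libraries, as for 23.1% of genes tested.

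Counts of Has1 pointed the same way with less precision. Summed counts were 237, 475, 76 and 79, or 36.5, 55.0, 21.3 and 30.2 CPM. The injured libraries were again both lower, as for 15.3% of the 10921 genes tested (15.6% had both higher). The log2 fold change was -0.87 (SE 0.44) and did not pass the edgeR quasi-likelihood test (adjusted p = 0.999), in which 0 genes were called and 215 had an unadjusted p under 0.05; DESeq2 called 13. With nuclei thinned to 3800 counts, the percentage with a Has1 count was 12.8%, 19.4%, 8.30% and 10.4%, against 30.5%, 38.4%, 14.6% and 19.7% unthinned. Thinning left out 24, 18, 100 and 36 shallower nuclei. In sums over nuclei, fewer nuclei of a kind and less RNA in each cannot be told apart.

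The mean depth-matched share of Has1 was lower in the injured libraries in all 6 glutamatergic clusters large enough to test, and no cluster passed a test on its own. In cluster 0 the depth-matched shares were 49.3%, 56.2%, 29.7% and 35.4%. In cluster 1, led by Sema5a and Zfhx3, they were 42.3%, 46.9%, 21.8% and 31.5%. These were the 2 largest clusters, and in both the groups did not overlap. In cluster 8, led by Hs3st2, shares were 40.7%, 36.2%, 29.1% and 4.17%; in cluster 10, led by Has2os, 31.3%, 37.8%, 18.6% and 12.7%; and in cluster 11, led by Col8a1, 42.2%, 45.1%, 16.9% and 30.5%. Cluster 9 was the exception, at 64.3%, 47.8%, 57.1% and 37.1%, with overlapping groups. Thus 5 of 6 clusters had both injured libraries lower, against 21.8%, 32.5%, 18.5%, 18.8% and 24.3% of genes in clusters 0, 1, 8, 10 and 11 (18%, 13.1%, 15.4%, 15.8% and 12.5% had both higher). The clusters share their libraries and are not independent, and the matched nuclei were few: in the library with fewest, 76 and 70 in clusters 0 and 1, but 10, 14, 13 and 17 in clusters 8, 9, 10 and 11.

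Within clusters the limma test called 0 genes, with 548 to 1651 genes at an unadjusted p under 0.05. For Has1 the log2 odds differences were -0.49 to -1.69 and the adjusted p 0.284 to 0.902. The departure of each cluster from the other glutamatergic nuclei ranged from -0.53 to 0.75 in log2 odds for Has1, with limma adjusted p of at least 0.951. In 3 further neuron clusters with at least 15 nuclei in every library, only unmatched shares were computed: 49.2%, 54.8%, 18.6% and 37.5% in cluster 5, 31.0%, 30.4%, 5.06% and 6.82% in cluster 6, and 43.3%, 53.3%, 9.52% and 26.7% in cluster 7, which has Gad2 among its leading genes. Both injured libraries were lower in each, but most were also shallower, with median stored genes per nucleus of 5801, 5233, 4173 and 5548.5 in cluster 5, 3858, 2633.5, 1600 and 2456 in cluster 6 and 4829, 4674.5, 3750 and 4174 in cluster 7. The part of depth in these differences was not tested, and the percentage of all genes with this order was not computed for these unmatched shares.

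**Figure D3:**
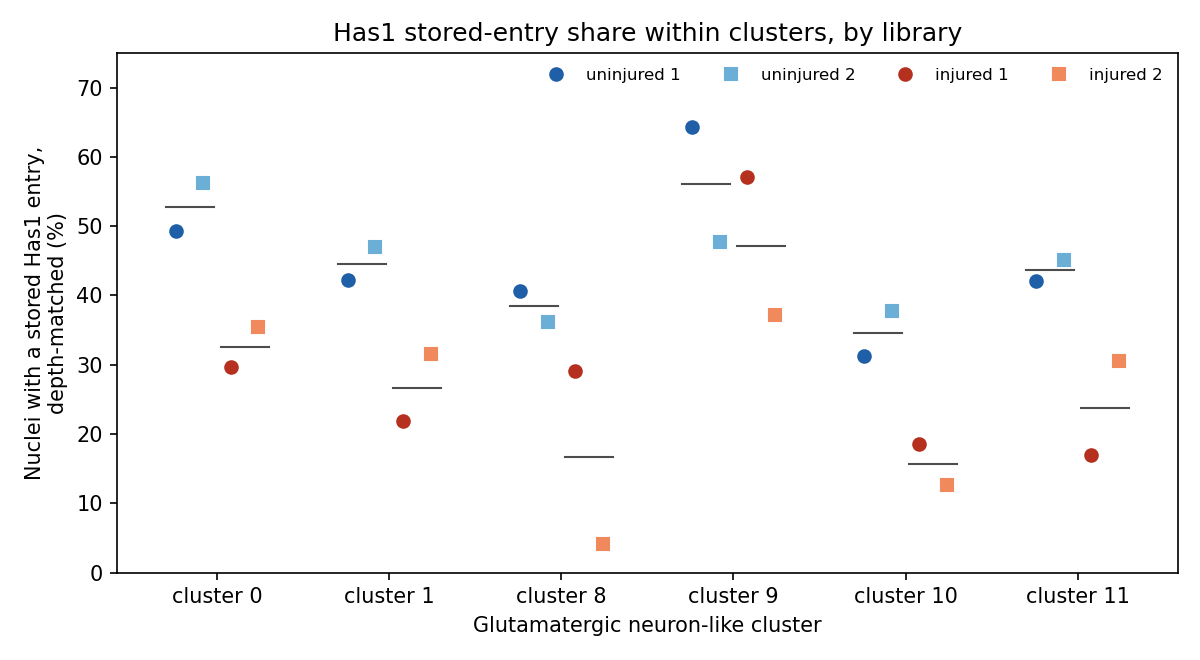
Depth-matched percentage of nuclei with a stored Has1 entry (vertical axis) in the 6 glutamatergic neuron-like clusters with at least 20 nuclei in every library (horizontal axis). Points are libraries and short lines group means; both injured libraries lie below both uninjured libraries in 5 clusters, and cluster 9 overlaps. The library with fewest matched nuclei has 10 to 17 of them in clusters 8 to 11.

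The other net genes did not pass either test. Of the 9 genes with a testable share, both injured libraries were higher for 5 (Has3, Hapln1, Hapln4, Acan and Bcan), against 22.8% of all genes tested, and lower for 2 (Has1 and Ncan), against 23.1%. In log2 odds Hapln4 had the largest difference among the 5, at 23.2%, 21.3%, 33.4% and 34.1% (log2 odds 0.83, SE 0.21, limma adjusted p = 0.100). Acan was stored in 13.0%, 15.5%, 21.4% and 20.7% (0.68, SE 0.24, limma adjusted p = 0.199). Bcan, with the largest difference of the 5 in percentage points, was stored in 48.4%, 63.8%, 71.4% and 66.8%, and Hapln1 in 16.3%, 23.3%, 28.1% and 24.6%. Has3 differed least of the 5, at 10.2%, 9.82%, 12.8% and 12.5%.

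Matched on depth, the mix of clusters also differed: cluster 0, where these 5 genes were most frequent, made up 18.1%, 33.1%, 38.8% and 33.7% of the matched nuclei, and cluster 9 made up 3.81%, 4.72%, 9.66% and 9.71%. Within clusters the differences were mixed. In cluster 0 the groups overlapped for Acan (45.5%, 38.3%, 38.8% and 44.0%), Has3 (26.7%, 17.7%, 24.3% and 17.4%) and Bcan (81.2%, 89.3%, 86.4% and 91.0%). Both injured libraries were higher there for Hapln1 (46.0%, 46.9%, 53.5% and 50.2%) and, by a small margin over uninjured 1, for Hapln4 (49.5%, 38.1%, 49.7% and 50.7%), as for 18% of genes. In cluster 9, with as few as 14 matched nuclei in a library, both injured libraries were higher for Hapln4 (38.4%, 40.4%, 59.2% and 61.4%), as for 15.2% of genes. There both were lower, opposite to the pooled order, for Acan (48.2%, 41.2%, 20.4% and 34.3%) and Has3 (31.3%, 26.7%, 6.12% and 25.7%), as for 18.5% of genes. Hapln1 (30.4%, 38.6%, 28.6% and 57.1%) and Bcan (64.3%, 94.3%, 81.6% and 94.3%) had no such order in cluster 9. In cluster 1 both injured libraries were higher for Bcan (37.9%, 48.7%, 54.2% and 50.8%), as for 13.1% of genes tested. Both were also higher for Acan (3.23%, 3.02%, 6.08% and 4.84%), too rare there to test. Has3, Hapln1 and Hapln4 overlapped in cluster 1. In cluster 11 both were higher for Hapln4 (11.72%, 7.92%, 15.03% and 31.55%) and Has3, as for 12.5% of genes, and the other genes overlapped. In clusters 8 and 10 none of the 5 genes had such an order. The part of the cluster mix in the pooled differences was not tested.

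Ncan was stored in 18.9%, 20%, 17.6% and 15.3%, Vcan in 13.7%, 14.6%, 13.8% and 15.2%, and Tnr in 89.0%, 90.6%, 92.6% and 90.3%, with limma adjusted p of 0.610 to 0.966. Tnr, with 1161 to 4562 counts per library, was the best-measured member by counts, and its log2 fold change was -0.02 (SE 0.23, edgeR adjusted p = 0.999). Acan counts gave 0.26 (SE 0.47) and Has3 counts 0.55 (SE 0.70). The fold changes of Bcan (-0.72, SE 2.84) and Vcan (0.24, SE 1.89) had errors too large to read, and Bcan had 0 counts in uninjured 1 and injured 2. Has2, Hapln1 and Hapln4 were too low in counts to test.

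**Figure D4:**
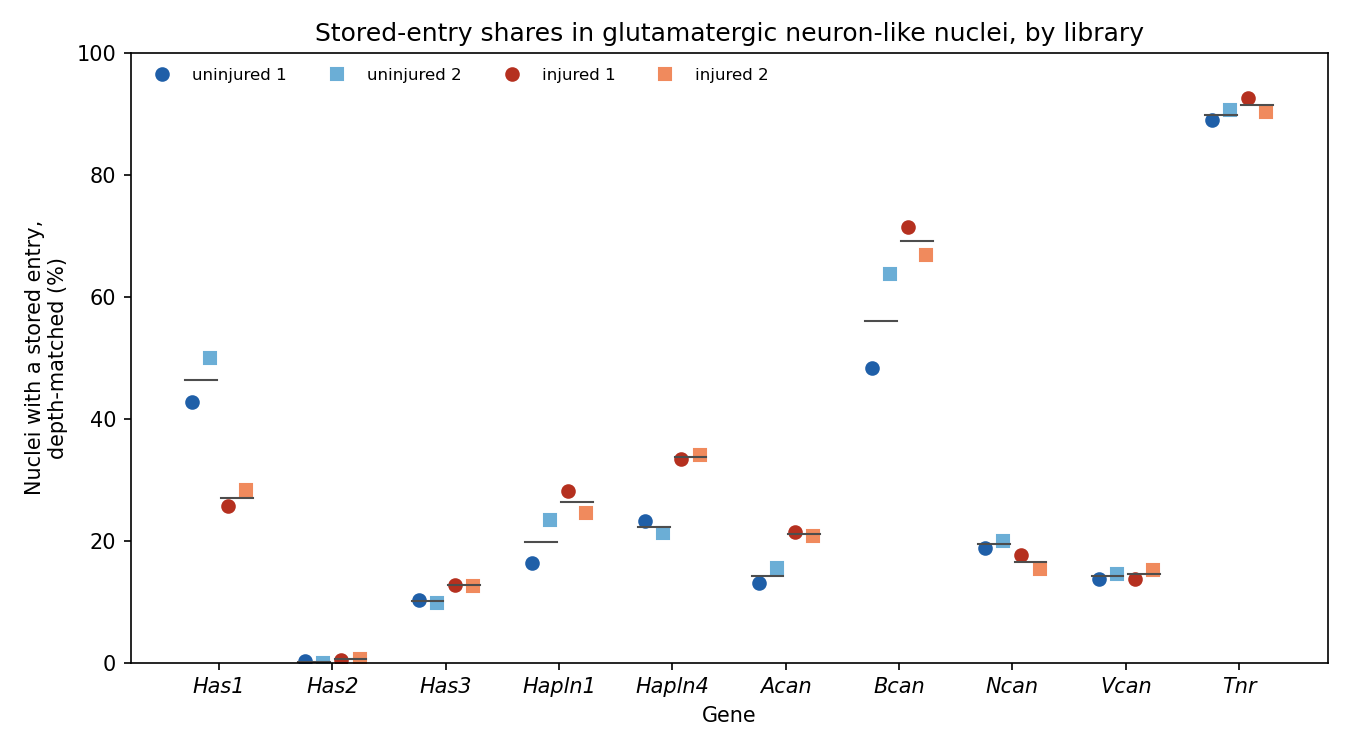
Depth-matched percentage of glutamatergic neuron-like nuclei with a stored entry (vertical axis) for each of the 10 genes (horizontal axis). Points are libraries and short lines group means; Has1 is lower in both injured libraries, Hapln4 and Acan are higher in both, and Tnr lies near 90% in all 4.

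Genes around this pathway were read from lists that enter the same tests. None of the 4 share-tested genes of hyaluronan turnover passed, with a median of 0.07 log2 odds (0.01 over all genes tested); they included the hyaluronidase gene Hyal1 and Ugdh, which makes a hyaluronan precursor. None of 3 tested matrix partners (Crtac1, Cspg5 and Ptprz1) passed. Of 15 genes for chondroitin sulfate synthesis and sulfation, 0 passed and 11 had a positive difference (6686 of 13196 over all genes tested), with a median of 0.22. The chondroitin polymerising factor Chpf was stored in 4.54%, 7.67%, 10.8% and 15% (limma adjusted p = 0.144), B4galt7 in 11.2%, 11.8%, 17.0% and 20.8% (adjusted p = 0.152), and the epimerase gene Dsel in 39.9%, 29.1%, 21.2% and 26.5% (adjusted p = 0.228). Of 6 proteases and inhibitors, 0 passed. Timp3, a metalloproteinase inhibitor, was stored in 76.7%, 78.9%, 59.6% and 68.9% (adjusted p = 0.133), Timp4 in 41.8%, 49.4%, 29.8% and 37.4% (adjusted p = 0.199), and Adamts9 in 4.33%, 8.02%, 12.1% and 10.8% (adjusted p = 0.205).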

How the data were processed

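Nuclear RNA of sorted nuclei was measured by droplet sequencing (10x Genomics 3' v3) in 4 libraries. The authors deposited 1 matrix per library of whole-number counts of unique molecular identifiers. The submitters' processing notes name mm10, Seurat 5.0.0 and Cell Ranger (its version, and whether counting used strand, not given in the sources used here). SoupX appears in the deposited names, without its settings.

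Nuclei with fewer than 500 genes or 5% or more mitochondrial counts were removed, as were doublets called by Scrublet (scanpy 1.11.5), 0.584% of nuclei. The rest were integrated and clustered in Seurat 5.3.0 (2000 variable genes, 30 dimensions, resolution 0.5). Calls and cluster borders varied with numerical precision, so 1 fixed setting was used. Clusters were named from marker lists; the scoring rule, which left cluster 7 unnamed for its Slc17a6 entries, was set after the data were seen.

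Counts were summed per library and tested with edgeR 4.0.16 (TMM, filterByExpr). Stored-entry shares were standardised over 8 bins of stored genes per nucleus (3 within clusters, of which 2 were usable in clusters 8, 9 and 10; at least 5 nuclei per library and bin), and their log2 odds (offset 0.5) tested with limma 3.58.1 (trend) for genes with a mean share of at least 5%. P-values were adjusted by Benjamini-Hochberg over all genes, threshold 0.05. Intervals are exact (95%) and cover counting error only. The fit over replicate numbers and the other alternatives are in the closing section. The 10 genes are all named; of each pathway list, genes past the threshold or otherwise up to 3 by smallest p are named. The genes and lists were chosen with earlier results of these data known. Some marker genes are not reported here.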

Additional observations from a re-analysis of the deposited data

How the results depend on the processing

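Precision was limited by 2 libraries a group, by depth (2618290 to 8630050 counts over glutamatergic neuron-like nuclei) and by the unknown settings of the subtraction of free RNA. The direction of the Has1 difference was negative under all 19 alternatives for shares and all 11 for counts, but its adjusted p by limma crossed 0.05 under 9 of the 19, and the cause was not tested. These alternatives reuse the same libraries, so the shared direction is no independent support. Settings that left out zero-spread or very frequent genes, changed the variance prior, restricted the test to protein-coding genes or added cluster 7 were chosen after the data were seen.

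Over all glutamatergic neuron-like nuclei, the share test called 2 genes. It called 2895 with no matching, 0 matched on total counts, 61 at a share of at least 1%, 4 at resolution 1.0, 1 among protein-coding genes, 74 with cluster 7, 196 without the 4 genes stored in every matched nucleus, 353 with a robust prior, 366 with both, 0 without a trend (with or without those 4 genes), and 212 for genes with a mean share under 95% or under 98%. Has1 passed with no matching (adjusted p = 0.00126), with cluster 7 (0.0480), without the 4 genes (0.0313), with a robust prior (0.0145, or 0.0137 without the 4 genes) and under the limits of 95% (0.0293) and 98% (0.0302). It did not pass matched on total counts (0.133), at 1% (0.0532), at resolution 1.0 (0.0632), with a 1000-gene minimum (0.0748), among protein-coding genes (0.127) or without a trend (0.127, or 0.114 without the 4 genes). Counts gave 13 calls in DESeq2 and 9 with no low-count filter, against 0. Within clusters, the share test called 1 gene in cluster 0 and 57 in cluster 1 without genes stored in every matched nucleus, and 389 in cluster 0 with no matching, where Has1 passed (0.0310).

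Replicate numbers are shared by both groups but tie no libraries together in the labels: deviations of same-numbered libraries correlated at -0.07 across genes in log2 CPM and at 0.03 in logit share. With the replicate block, the share test called 636 genes and Has1 passed (adjusted p = 0.00442); the block gave 0 calls for summed counts, 1 gene by share in cluster 1, 1 by counts in cluster 8 and 2 departures of cluster 8. The count difference of Bcan became 0.24 under the block.

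Leaving out 1 library at a time gave 0 to 325 calls for summed counts (325 without uninjured 1) and 2 to 245 for shares. Within clusters the counts gave 0 to 83 calls in cluster 0, 0 to 377 in cluster 1, 0 to 65 in cluster 8, 0 to 107 in cluster 9, 0 to 21 in cluster 10 and 0 to 41 in cluster 11. Shares gave 0 to 1 in cluster 0 and 0 to 199 in cluster 9. Departures gave 0 to 82 in cluster 0, 0 to 15 in cluster 1, 0 to 1 in cluster 8, 0 to 7 in cluster 9 and 0 to 3 in cluster 11.

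Signs turned, none of them past the threshold, as follows. With no matching the share differences were -0.31 for Has3, -0.20 for Hapln1, -0.023 for Acan, -0.17 for Vcan and -0.63 for Tnr, and the departure of Has1 was -0.029 in cluster 0 and 0.54 in cluster 11. Leaving out 1 library at a time, count differences ranged from -0.067 to 0.56 for Acan, -9.42 to 8.29 for Bcan, -0.76 to 5.98 for Vcan and -0.23 to 0.19 for Tnr. For Has1 the counts in cluster 0 ranged from -0.91 to 0.088 and the share in cluster 9 from -1.09 to 1.14. Its departures ranged from -0.049 to 0.26 in cluster 0, -0.11 to 0.23 in cluster 1, -1.37 to 0.000104 in cluster 8, -0.059 to 2.60 in cluster 9, -0.85 to 0.19 in cluster 10 and -0.82 to 0.71 in cluster 11.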
